A study of Arabidopsis with 8 samples.

Results

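DFR, GSTF12 and AT4G14090 are 3 *Arabidopsis* genes of anthocyanin formation, and their transcripts were followed in leaves of nNOS transgenic and WT plants with and without drought. Each gene was matched by 1 probe set, so the account covers 3 of the 22746 probe sets on the array that are not Affymetrix controls. DFR (AT5G42800) and AT4G14090 were named by the platform annotation. GSTF12 (AT5G17220) was named only by a supplementary gene list of the study, which holds genes that passed the study's thresholds, so a large change of GSTF12 somewhere in these arrays was given by the way it was found.

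Anthocyanins are the red to purple flavonoid pigments that leaves store in the vacuole, often under high light, cold, phosphate or nitrogen shortage, or drought. Chalcone synthase and its partner enzymes first build dihydroflavonols, which can become either flavonols or anthocyanins. DFR, dihydroflavonol 4-reductase, takes the first step towards anthocyanins. AT4G14090 encodes a glucosyltransferase (UGT75C1) that adds glucose to the 5-position of anthocyanins. GSTF12 (also TT19), a phi-class glutathione transferase, is needed for the pigment to reach the vacuole. In *Arabidopsis*, complexes of MYB, bHLH and WD40 proteins switch on these late genes, and repressors such as MYBL2 hold them back.

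The 4 groups were nNOS drought, nNOS control, WT drought and WT control, with 2 arrays each. All plants were of ecotype Col-0. The nNOS plants carried a rat neuronal nitric oxide synthase gene driven by the CaMV 35S promoter, which is active in most tissues. RNA of 2 such lines, nNOS-2 and nNOS-25, was pooled for labelling, although the extraction text of the sample labels names nNOS-25 alone. Drought plants had no water from an age of 2 weeks, for 7 d in the methods text and for 14 d in the sample labels, and control plants were watered. At least 20 seedlings gave the leaves of 1 sample. Whether replicates were grown apart is not given in the sources used here, so the p-values reflect the spread of these samples alone, which may be technical. In whole leaves, fewer cells with a transcript and less transcript per cell cannot be told apart.

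The deposited values are normalized log2 signals, and a difference of 1 is a 2-fold change. The array medians were 4.92 to 5.08 and the lower quartiles 2.94 to 3.24. None of the 3 genes fell below the lower quartile on any array, but AT4G14090 lay below the median on all 8 and DFR on all but the 2 WT control arrays. No background measurement was used here, so how far a dim signal understates a change is not known. The poly-A control RNAs, which are spiked in before labelling, averaged 8.98 and 9.40 (log2 signal) in nNOS control, against 6.04 to 6.88 on the 6 arrays of the remaining groups. Probe sets near the 3′ end of GAPDH exceeded those near its 5′ end, a measure of how intact RNA and labelling were, by 0.636 to 0.865 (log2) on drought arrays and by 1.02 to 1.45 on control arrays. The same difference for actin ordered the groups in another way, with 3.07 and 2.91 in nNOS drought, 2.97 and 2.96 in nNOS control, 3.63 and 3.58 in WT drought and 3.03 and 3.41 in WT control. Their part in the results below was not tested. Of the 7 leaf markers that were listed, 2 had a name, RCA (Rubisco activase) and LHCB4.1 (a chlorophyll-binding protein), and their mean log2 signals were 12.87 to 13.43 in all groups. Between nNOS control and WT control, LHCB4.1 was 0.35 higher (log2, limma adjusted p = 0.0220).

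Without drought, all 3 anthocyanin genes were lower in nNOS transgenic plants than in the WT. DFR had log2 signals of 3.76 and 3.93 in nNOS control and of 5.21 and 5.14 in WT control. The log2 fold change was -1.33 (limma adjusted p = 4.34e-05, SE 0.107, 2 arrays per group), or 2.51-fold lower. GSTF12 had 4.90 and 5.06 in nNOS control and 6.38 and 6.36 in WT control. Its log2 fold change was -1.38 (limma adjusted p = 3.18e-05, SE 0.106, 2 arrays per group), or 2.61-fold lower. The arrays of both groups were more than 1 log2 unit apart for DFR and GSTF12, whichever pair was taken. AT4G14090 had 4.26 and 4.24 in nNOS control and 4.71 and 4.59 in WT control, a smaller difference of -0.40 (limma adjusted p = 0.0120, SE 0.101, 2 arrays per group), or 1.32-fold.

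Of the 3 genes, 3 passed the threshold (an adjusted p of 0.05 or less) as lower, against 17.9% of all probe sets. GSTF12 came from the study's list of genes past its thresholds, and the members were chosen with earlier results known. The counts and ranks of the members are therefore descriptions, not tests. Of the 2 genes named by the platform annotation, 2 were lower. DFR and GSTF12 were in addition at least 2-fold lower, which held for 1.18% of all probe sets. The median log2 fold change of the 3 genes was -1.33, against 0.01 over all probe sets. Only 51 probe sets fell as far as DFR or further, DFR included, and 44 as far as GSTF12. The nNOS control arrays lay below the WT control arrays without overlap for all 3 genes, as for 32.1% of all probe sets. For AT4G14090 the adjusted p was 0.0788 without WT control replicate 1 and 0.0512 in a fit to the 4 arrays of the comparison, whereas DFR and GSTF12 passed in every alternative fit that gave them a value. A filter on a mean signal of at least 5 left out DFR and AT4G14090.

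**Figure D1:**
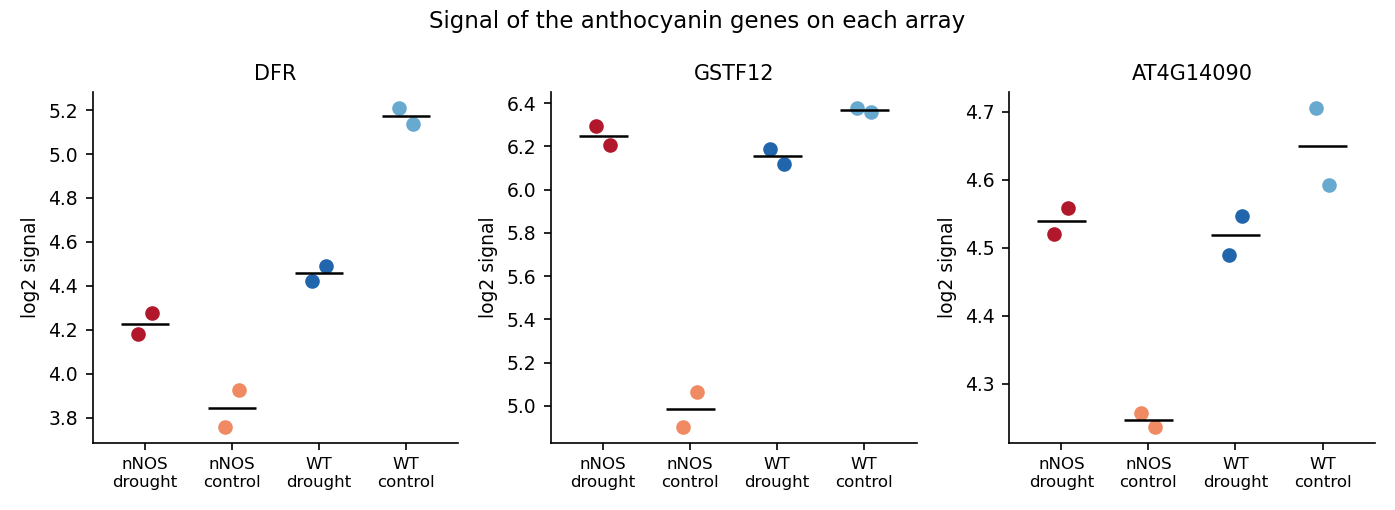
Log2 signal of DFR, GSTF12 and AT4G14090 (vertical axes, a scale of its own for each gene) on the 8 arrays, with 2 arrays in each of the 4 groups (horizontal axes). Points are arrays and black lines are group means. The nNOS control arrays are lowest for each gene, at 3.76 and 3.93 for DFR, and the WT control arrays are highest.

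In nNOS transgenic plants, drought went with higher GSTF12 and, by less, higher DFR. GSTF12 had log2 signals of 6.29 and 6.20 in nNOS drought and of 4.90 and 5.06 in nNOS control. It rose by 1.27 (limma adjusted p = 2.80e-05, SE 0.106, 2 arrays per group), or 2.40-fold, and 70 of all probe sets rose as much or more, GSTF12 included. DFR had 4.18 and 4.28 in nNOS drought and 3.76 and 3.93 in nNOS control, and rose by 0.39 (limma adjusted p = 0.0238, SE 0.107, 2 arrays per group), or 1.31-fold. AT4G14090 had 4.52 and 4.56 in nNOS drought and 4.26 and 4.24 in nNOS control. Its difference of 0.29 (95% interval 0.07 to 0.52, limma adjusted p = 0.0565) did not pass, although its arrays did not overlap.

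At the same threshold, 2 of the 3 genes were higher, against 14% of all probe sets, and 1 of them, GSTF12, at least 2-fold, against 0.809%. GSTF12 was taken from the study's list, and of the 2 genes named by the platform annotation 1 was higher. The higher drought arrays without overlap, seen for all 3 genes, were seen for 29.7% of all probe sets. With single arrays left out the rise of DFR was 0.30 to 0.47, but it did not always pass the test. Leaving out nNOS control replicate 1 gave an adjusted p of 0.0706, and leaving out nNOS drought replicate 1 or 2 gave 0.0678 or 0.122. A fit to the 4 arrays of the comparison gave 0.0802. For AT4G14090 the adjusted p was 0.0337 after quantile normalization.

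In the WT, drought went with lower DFR, and neither of the other genes passed the test. DFR had log2 signals of 4.42 and 4.49 in WT drought and of 5.21 and 5.14 in WT control. It fell by 0.72 on the log2 scale (limma adjusted p = 0.00322, SE 0.107, 2 arrays per group), or 1.64-fold. GSTF12 had 6.19 and 6.12 in WT drought and 6.38 and 6.36 in WT control, a difference of -0.21 (95% interval -0.45 to 0.02, limma adjusted p = 0.212). AT4G14090 had 4.49 and 4.55 in WT drought and 4.71 and 4.59 in WT control, a difference of -0.13 (95% interval -0.35 to 0.09, limma adjusted p = 0.424). Of the 3 genes, 1 was lower, against 4.92% of all probe sets, and 0 of them at least 2-fold, against 0.347%. The WT drought arrays lay below the WT control arrays without overlap for all 3 genes, as for 35.6% of all probe sets. Without WT drought replicate 1, the adjusted p of DFR was 0.0504. Without both nNOS control arrays, a fit chosen after seeing the data, it was 0.00182.

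The drought responses of DFR and GSTF12 differed between the genotypes. The response of nNOS transgenic plants minus that of the WT was 1.48 for GSTF12 (SE 0.149, limma adjusted p = 0.00128) and 1.10 for DFR (SE 0.152, limma adjusted p = 0.00594). For GSTF12 this joined a rise of 1.27 in nNOS transgenic plants and a change in the WT that did not pass the test, and for DFR a rise of 0.39 and a fall of 0.72. The difference for AT4G14090 was 0.42 (95% interval 0.11 to 0.74, limma adjusted p = 0.129), which did not pass. Thus 2 of the 3 genes had a higher response in nNOS transgenic plants, against 1.89% of all probe sets (3.64% in either direction), and both by at least 1 on the log2 scale, against 0.312%. GSTF12 was taken from the study's list, and of the 2 genes named by the platform annotation 1 passed as higher. Only 14 probe sets had a difference as high as that of GSTF12, and 42 as high as that of DFR. With any single array left out, both passed, at 1.40 to 1.56 for GSTF12 and 1.02 to 1.19 for DFR. The nNOS control arrays enter these differences and the comparison of genotypes without drought, so the values are not separate evidence.

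**Figure D2:**
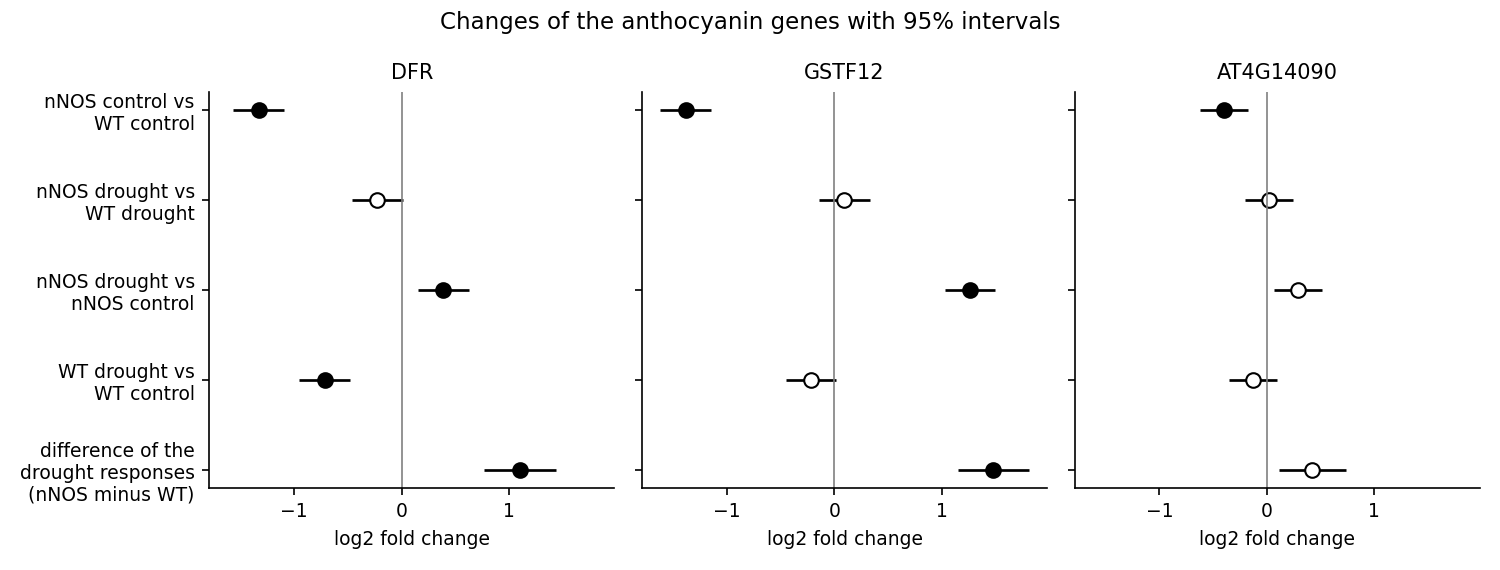
Log2 fold changes (horizontal axes) of DFR, GSTF12 and AT4G14090 in the 4 comparisons of groups, and the drought response of nNOS transgenic plants minus that of the WT. Points are limma estimates over 8 arrays, bars are 95% intervals, and filled points passed an adjusted p of at most 0.05. The filled points of GSTF12 are at -1.38, 1.27 and 1.48, and no gene has a filled point between the genotypes under drought.

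Under drought, none of the 3 genes passed the test between the genotypes. DFR had log2 signals of 4.18 and 4.28 in nNOS drought and of 4.42 and 4.49 in WT drought, a difference of -0.23 (95% interval -0.47 to 0.01, limma adjusted p = 0.182). GSTF12 had 6.29 and 6.20 in nNOS drought and 6.19 and 6.12 in WT drought, a difference of 0.09 (95% interval -0.14 to 0.33, limma adjusted p = 0.571). AT4G14090 had 4.52 and 4.56 in nNOS drought and 4.49 and 4.55 in WT drought, and these arrays overlapped. Its difference was 0.02 (95% interval -0.20 to 0.24, limma adjusted p = 0.903). For DFR the nNOS drought arrays lay lower without overlap, as for 30.2% of all probe sets, and for GSTF12 higher, as for 36.2%. The intervals of all 3 genes leave out a 2-fold difference in either direction, but not smaller ones. In limma, 0 of the 3 genes passed the adjusted p, against 10.7% of all probe sets in either direction. The unadjusted p was also above 0.05 for all 3 genes.

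The order of the group means was the same at both ends for the 3 genes, with WT control highest and nNOS control lowest. For DFR the mean log2 signals were 4.23 ± 0.07 in nNOS drought, 3.84 ± 0.12 in nNOS control, 4.46 ± 0.05 in WT drought and 5.17 ± 0.05 in WT control (SD, n = 2 each). Of the neighbours in this order, only nNOS drought and WT drought did not pass the test against each other. For GSTF12 they were 6.25 ± 0.06 in nNOS drought, 4.98 ± 0.11 in nNOS control, 6.15 ± 0.05 in WT drought and 6.37 ± 0.01 in WT control (SD, n = 2 each), and only the step down to nNOS control passed. For AT4G14090 they were 4.54 ± 0.03 in nNOS drought, 4.25 ± 0.01 in nNOS control, 4.52 ± 0.04 in WT drought and 4.65 ± 0.08 in WT control (SD, n = 2 each), and again only the step down to nNOS control passed. For GSTF12 and AT4G14090 this step is a contrast with WT drought that was chosen after seeing the data. For AT4G14090 it was -0.27 (limma adjusted p = 0.0447). The larger difference of AT4G14090 between nNOS drought and nNOS control, 0.29, did not pass (limma adjusted p = 0.0565).

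Droughted nNOS transgenic plants were also set against watered WT plants, in a contrast of the same fit that was chosen after seeing the data and that joins both factors. GSTF12 differed by -0.12 (95% interval -0.35 to 0.11, limma adjusted p = 0.508) and AT4G14090 by -0.11 (95% interval -0.33 to 0.11, limma adjusted p = 0.524). DFR was still lower in nNOS drought, with a log2 difference of -0.94 (limma adjusted p = 0.000408, SE 0.107, 2 arrays per group), and 16.7% of all probe sets passed in this contrast. In nNOS control versus WT drought, chosen in the same way, all 3 genes were lower, with -0.61 for DFR, -1.17 for GSTF12 and -0.27 for AT4G14090 (limma adjusted p = 0.00106, 2.45e-05 and 0.0447). In that contrast 49% of all probe sets passed in either direction. The share that was lower is not given here, so the count of 3 cannot be weighed.

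Over the 8 arrays, the profile of AT4G14090 followed that of GSTF12 with a Pearson correlation of 0.94 and that of DFR with 0.86, and DFR and GSTF12 had 0.76. These are descriptions, since the 8 points come from 4 groups and arrays of a group share their treatment. The genes whose profiles were most like each gene were taken from 5350 named probe sets whose group means spanned at least 0.5. AT4G14090 itself spanned 0.40 and was not among them. For DFR, GRP19 and AT1G66850 came first (both 0.99), genes known from the anther tapetum, the cell layer that feeds pollen. They were followed by ASF1B (a histone chaperone gene), CYP96A15 (a cytochrome P450 gene of wax alkanes) and BZIP53 (a bZIP factor gene), each with 0.99. By this measure GSTF12 stood in place 608 for DFR and DFR in place 1079 for GSTF12.

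For GSTF12, AT5G02050 came first (0.99), followed by SKP2A (0.99), an F-box protein gene, and AT1G44000 (0.98). FRO1 of AT5G67590, a subunit gene of mitochondrial complex I, and AT4G08790 also had 0.98. All 5 were lower in nNOS control versus WT control, with log2 fold changes of -1.02 to -0.74, and differences in the WT after drought that did not pass (limma adjusted p = 0.365 to 0.676). For AT4G14090, AT4G27340, AT4G36420 and TSA1 came first (each 0.98), followed by AT1G07830 and AT2G42130 (both 0.97). GRP19, CYP96A15 and TSA1 were named from the study's list of called genes.

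Other named genes of flavonoid formation were counted at the same threshold. Of 23 listed genes of the early flavonoid, late anthocyanin, flavonol and proanthocyanidin steps, 8 were named by the platform annotation and could be counted. In nNOS control versus WT control, 1 was lower, against the 17.9% of all probe sets given above, and 1 higher, a direction without a share here. With 8 genes, such counts cannot be told apart from the share of all probe sets. The median log2 fold change of the 8 genes was -0.04, against 0.01 over all probe sets. UGT78D1, which adds rhamnose to flavonols, had 6.22 and 6.13 in nNOS control and 6.58 and 6.61 in WT control, a difference of -0.42 (limma adjusted p = 0.00986). UGT89C1, which adds rhamnose to the 7-position of flavonols, had 6.63 and 6.85 in nNOS control and 6.33 and 6.42 in WT control, a change of 0.36 (limma adjusted p = 0.0407). UGT78D1 did not pass after quantile normalization (adjusted p = 0.0547), after cyclic loess normalization (adjusted p = 0.0824) and without WT control replicate 2 (adjusted p = 0.0586). UGT89C1 did not pass without nNOS control replicate 2 or any 1 of the 4 WT arrays (adjusted p = 0.0680 to 0.181), in a fit to 4 arrays (adjusted p = 0.0871) or with array weights (adjusted p = 0.0816).

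The late anthocyanin genes UGT78D2, UF3GT and 5MAT, which encode transferases that decorate anthocyanins or other flavonoids with sugars or malonate, had log2 fold changes of 0.18, -0.06 and -0.44 in nNOS control versus WT control, and none passed (limma adjusted p = 0.189, 0.756 and 0.0505). CHIL, a helper of chalcone synthase, differed by -0.01 with an SD of 0.51 between the nNOS control arrays. BAN, the anthocyanidin reductase of the seed coat, differed by -0.30 (limma adjusted p = 0.200). After drought, 1 of the 8 genes was higher in nNOS transgenic plants (UGT78D1, 0.38, limma adjusted p = 0.0194), against 14% of all probe sets, and 0 were lower. In the WT, 0 were lower in limma, against 4.92% of all probe sets, 0 were higher, and 2 had an unadjusted p of at most 0.05. No share of all probe sets is given here for lower in nNOS transgenic plants, for higher in the WT or for the unadjusted p. With 8 genes, these counts cannot be told apart from the shares. UGT78D1 did not pass here after quantile (adjusted p = 0.0798) or cyclic loess normalization (adjusted p = 0.114), in a fit to 4 arrays (adjusted p = 0.0758), with array weights (adjusted p = 0.0522), or without nNOS control replicate 2 or either nNOS drought array (adjusted p = 0.0591 to 0.105).

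**Figure D3:**
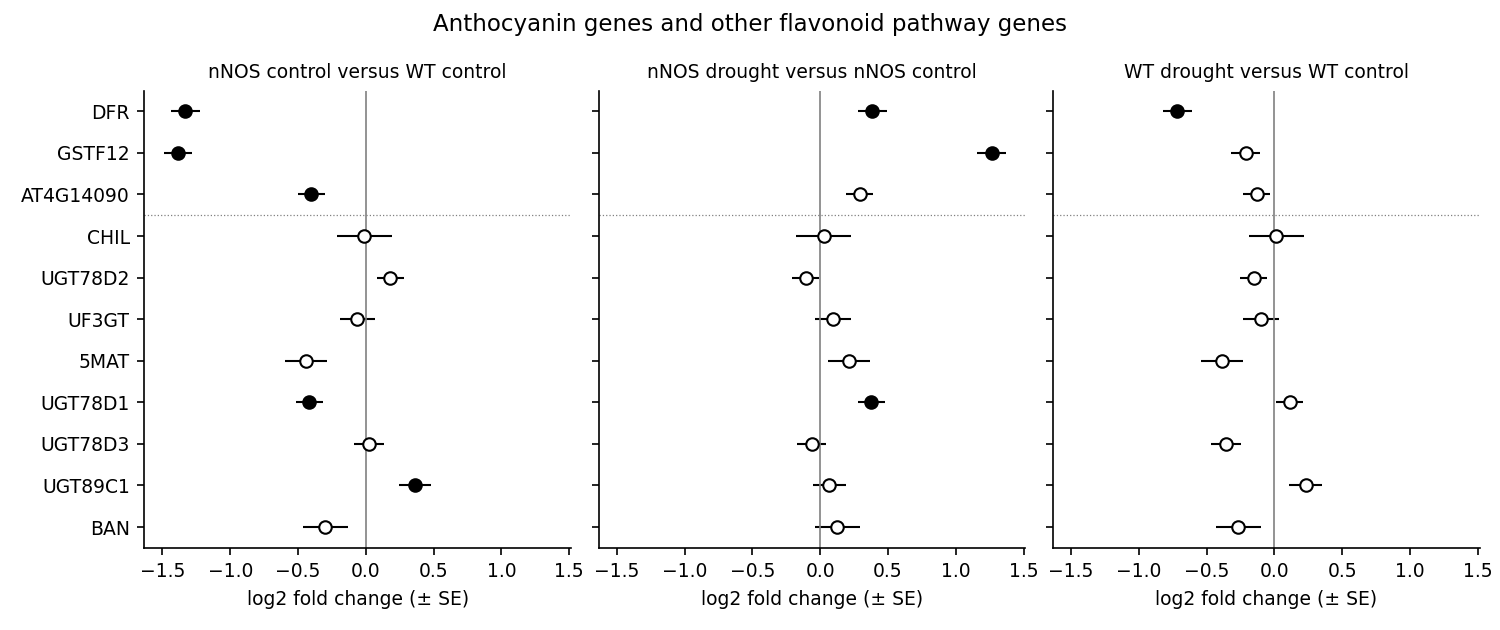
Log2 fold changes with SE (horizontal axes) of DFR, GSTF12 and AT4G14090, above the dotted line, and of 8 other flavonoid pathway genes, below it, in 3 comparisons. Filled points passed an adjusted p of at most 0.05. In nNOS control versus WT control the other genes lie between -0.44 and 0.36, and DFR and GSTF12 at -1.33 and -1.38. The 8 are those of 23 listed genes with a platform name, and the rest were not analysed. GSTF12 was named only from the study's list of called genes, so the plot cannot show whether the fall was particular to DFR and GSTF12.

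Of 13 listed activators and 8 listed repressors of flavonoid genes, 4 had a name. TRY, a small MYB repressor named by the platform annotation, had a log2 fold change of 0.02 in nNOS control versus WT control (limma adjusted p = 0.937). MYB113, MYBL2 and LBD38 were named only from the list of called genes and picked out after their values were seen, so they are examples and enter no count. MYB113, a MYB activator of anthocyanin genes, had 4.97 and 4.96 in nNOS control and 5.39 and 5.61 in WT control. It differed by -0.53 on the log2 scale (limma adjusted p = 0.00459, SE 0.111, 2 arrays per group). After drought in the WT, where it had 4.38 and 4.48 in WT drought, it fell by 1.07 on the log2 scale (limma adjusted p = 0.000329). The drought difference of MYB113 in nNOS transgenic plants, -0.17, did not pass (limma adjusted p = 0.308).

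MYBL2, a repressor of anthocyanin genes, was highest in nNOS control, where the 3 genes were lowest. Its next highest level was in WT control, where the 3 genes were highest. It had 10.05 and 10.04 in nNOS control and 9.42 and 9.28 in WT control, or 0.70 higher (limma adjusted p = 0.000917, SE 0.108, 2 arrays per group). After drought it fell to 8.27 and 8.44 in nNOS drought, a log2 fold change of -1.69 (limma adjusted p = 4.05e-06), and to 8.38 and 8.41 in WT drought, one of -0.95 (limma adjusted p = 0.000593). LBD38, a repressor of anthocyanin genes that nitrate induces, had 10.39 and 10.50 in nNOS control and 9.23 and 9.19 in WT control, a change of 1.24 (limma adjusted p = 7.03e-05). After drought it fell by 1.81 in nNOS transgenic plants (8.61 and 8.67 in nNOS drought) and by 0.94 in the WT (8.16 and 8.38 in WT drought), both on the log2 scale (limma adjusted p = 2.99e-06 and 0.000781).

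The drought responses of these regulators also differed between the genotypes, by 0.91 for MYB113, -0.74 for MYBL2 and -0.87 for LBD38 (limma adjusted p = 0.0142, 0.0282 and 0.0165). With single arrays left out these differences were 0.79 to 1.02 for MYB113, -0.82 to -0.65 for MYBL2 and -0.98 to -0.76 for LBD38. MYBL2 and LBD38 then did not pass without any 1 of the 6 arrays other than nNOS control, with adjusted p-values of 0.0510 to 0.150, nor did MYB113 without any of these 6 but WT control replicate 1. In the WT, DFR, MYBL2 and LBD38 were all lower after drought. The part of these regulators in the levels of the anthocyanin genes was not tested.

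**Figure D4:**
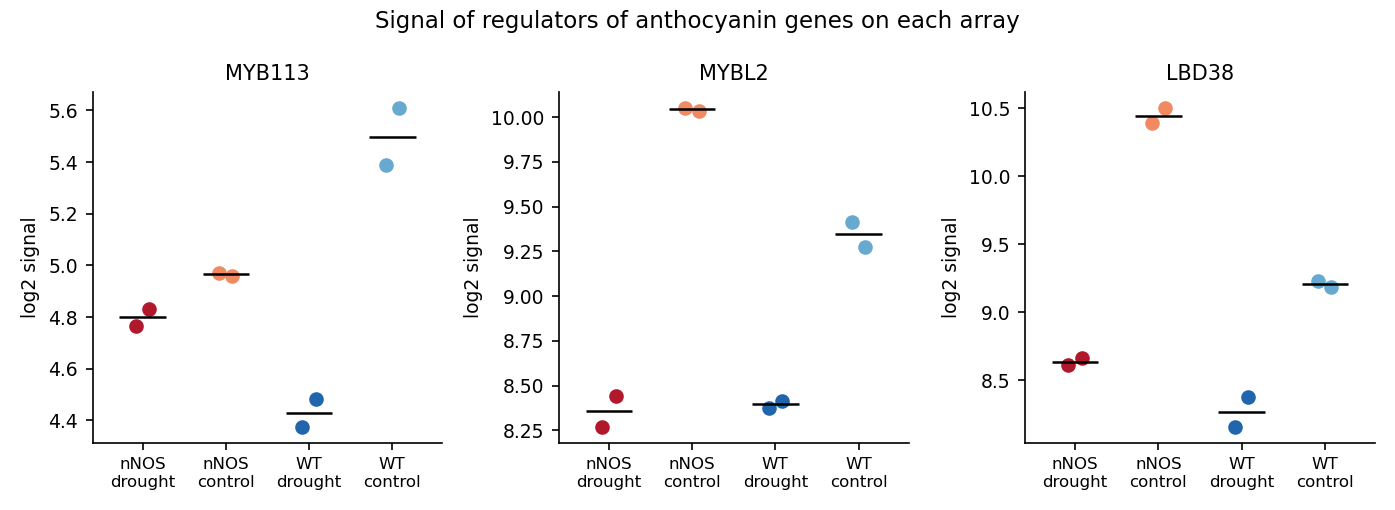
Log2 signal of MYB113, MYBL2 and LBD38 (vertical axes, a scale of its own for each gene) on the 8 arrays, with 2 arrays in each of the 4 groups (horizontal axes). Points are arrays and black lines are group means. MYBL2 and LBD38 are highest in nNOS control, at 10.05 and 10.04 for MYBL2, and MYB113 is highest in WT control.

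Some transcripts known from the anther tapetum, a tissue outside the leaf, moved with DFR across the groups. Of 8 listed tapetum genes, 4 were named, GRP19 from the list of called genes alone. AT1G66850, a lipid transfer protein gene, had log2 signals of 4.39 and 4.47 in nNOS drought, 3.62 and 3.69 in nNOS control, 5.11 and 5.21 in WT drought and 7.06 and 7.32 in WT control. GRP19, which encodes a pollen coat protein, had 2.57 and 2.69 in nNOS drought, 2.14 and 2.33 in nNOS control, 3.14 and 3.29 in WT drought and 4.64 and 4.45 in WT control. The groups stood in the same order for both genes and DFR, but GRP19 was below the lower quartile on the 4 nNOS arrays, where a signal above background is not shown.

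In nNOS control versus WT control, AT1G66850 had a log2 fold change of -3.54 (limma adjusted p = 2.06e-07) and GRP19 one of -2.31 (limma adjusted p = 3.39e-06). After drought in the WT they had changes of -2.03 and -1.33, and in nNOS transgenic plants of 0.77 and 0.40. The rise of GRP19 did not pass with arrays centred on the median or in a fit to 4 arrays (limma adjusted p = 0.0610 and 0.0771). Nor did it pass with eBayes with trend and robust or with array weights (limma adjusted p = 0.0536 and 0.0827). Without nNOS control replicate 1 or any 1 of the 4 drought arrays it did not pass either. For BGLU20, a beta-glucosidase gene, nNOS control minus WT control was -1.33 (limma adjusted p = 0.000709). Its change after drought in the WT was -1.07 (limma adjusted p = 0.00867). In nNOS transgenic plants BGLU20 changed by -0.01 after drought (limma adjusted p = 0.974), with 1.72 and 2.40 on the nNOS control arrays. It was below the lower quartile on the 6 arrays other than WT control. A9, a defining tapetum gene, was below the lower quartile on all 8 arrays, and its difference of 0.12 did not pass (limma adjusted p = 0.555). Summed on the linear scale, the 4 genes gave 39.2 and 40.4 in nNOS drought, 28.03 and 29.9 in nNOS control, 54.7 and 57.5 in WT drought and 178.1 and 196.7 in WT control, where AT1G66850 made up most of the sum. The part of other tissue in the levels of DFR was not tested. Of 4 seed coat markers, 1 was named, BAN, below the array median on all 8 arrays, and no gene of 3 seed storage proteins was named.

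**Figure D5:**
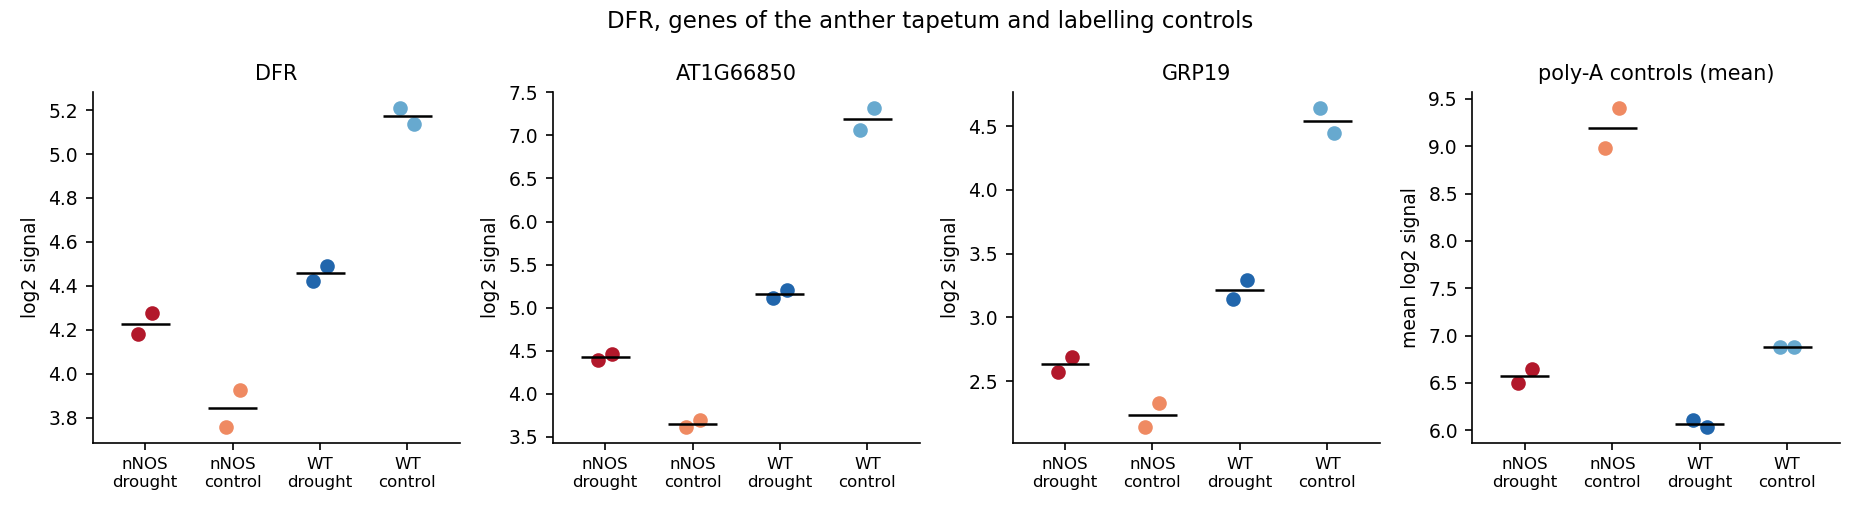
Log2 signal of DFR, of the tapetum genes AT1G66850 and GRP19 and mean log2 signal of the poly-A labelling controls (vertical axes, a scale of its own for each panel) on the 8 arrays, with 2 arrays in each of the 4 groups (horizontal axes). Points are arrays and black lines are group means. The 3 genes share 1 order of groups, with WT control highest, whereas the poly-A controls stand apart in nNOS control, at 8.98 and 9.40.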

How the data were processed

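Leaf RNA of 8 samples was hybridized to Affymetrix ATH1 arrays, 1 per sample. The authors read the arrays with Affymetrix software and tested them with affylmGUI, and the deposited log2 values are their normalized signals. The normalization and the build are not given in the sources used here. Groups came from the source names in the sample labels.

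A limma model (limma 3.58.1, R 4.3.3) with 4 group means was fitted to the 8 arrays and moderated with eBayes, with p-values adjusted by the Benjamini-Hochberg method over all 22810 probe sets. The 64 Affymetrix controls were then left out of all counts. A gene passed the test if its adjusted p did not exceed 0.05, and was called where the log2 fold change was also at least 1 in size, the fold threshold of the study. Intervals of 95% used the moderated SE. The procedure was tested on simulated data. The number of arrays limits the precision.

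The platform annotation listed 13513 probe sets with 1 gene and 503 with several, and the study's supplementary list of called genes named 245 more with 1 gene. Since that list holds only called genes, its names entered no count of list genes that were higher or lower, but they are among the named genes and the candidates for alike profiles, and GSTF12 is a member. Fold changes and p-values in it were not used. Of 85 genes in the lists, 23 had a name, and the others were not analysed here. The named genes are the 3 members, genes of the lists with a platform name, and the 5 genes most like each member; exceptions are stated beside them. The members and lists were chosen with earlier results of these data known. Each gene was represented by its brightest probe set. Alternatives were other normalizations, a filter on signal, other fits, the replicate number as a block, other thresholds and each array left out in turn, which assumes that the lone array of its group varies like the other groups.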

Additional observations from a re-analysis of the deposited data

Results flagged for a closer look

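The drought response differed between the genotypes, by the test of the difference itself, for DFR, GSTF12 and AT1G66850, and for MYB113, MYBL2, LBD38 and GRP19, which were named only from a list of called genes. The response of nNOS transgenic plants minus that of the WT was 1.10 for DFR, 1.48 for GSTF12, 0.91 for MYB113, -0.74 for MYBL2, -0.87 for LBD38, 2.80 for AT1G66850 and 1.73 for GRP19 on the log2 scale (limma adjusted p = 0.00594, 0.00128, 0.0142, 0.0282, 0.0165, 9.04e-05 and 0.00114, gene by gene). As stated above, the differences of MYB113, MYBL2 and LBD38 did not always pass with single arrays left out. All the differences listed here contain the nNOS control arrays, whose poly-A controls stand apart, and that part was not tested. With 2 arrays per group, no group was large enough for a test of single outlying arrays.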

How the results depend on the processing

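Of the alternative values for DFR, GSTF12 and AT4G14090, 222 kept their side of the threshold, 9 no longer passed and 2 newly passed. No value that passed changed direction. AT4G14090 in nNOS drought versus WT drought, which did not pass, was -0.008 to 0.050 with arrays left out, so its direction was not always kept. The rise of DFR in nNOS drought versus nNOS control, 0.39, did not pass in a fit to 4 arrays, with eBayes with trend and robust or with array weights (0.39 in each, adjusted p = 0.0802, 0.0539 and 0.0574), and leaving out arrays gave 0.30 to 0.47. AT4G14090 in nNOS control versus WT control did not pass in a fit to 4 arrays (-0.40, adjusted p = 0.0512), and leaving out arrays gave -0.46 to -0.35. AT4G14090 in nNOS drought versus nNOS control passed after quantile (0.34) and cyclic loess normalization (0.31). DFR in WT drought versus WT control was -0.75 to -0.68 with arrays left out. The causes were not tested.

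Counts of called probe sets were 391 to 857 in nNOS control versus WT control, 379 to 678 in nNOS drought versus nNOS control, 3 to 48 in nNOS drought versus WT drought and 88 to 287 for the difference of the responses when arrays were left out (main 490, 447, 20 and 170). Without nNOS control replicate 1 the counts were 857, 678 and 287 in the comparisons with nNOS control. For nNOS drought versus WT drought, 48 and 10 came without nNOS drought replicates 1 and 2, and 3 and 8 without WT drought replicates 1 and 2. For the difference of the responses, 110, 99 and 88 came without WT control replicate 1 and WT drought replicates 1 and 2. With only probe sets of a mean signal of at least 5 they were 100 (main 154) in WT drought versus WT control and 12 in nNOS drought versus WT drought, and at an adjusted p of at most 0.01 the difference of the responses gave 93. The split in nNOS control versus WT control, 221 higher and 269 lower, was 303 and 186 after quantile normalization, 338 and 152 with arrays centred on the median and 353 and 139 after cyclic loess. In nNOS drought versus WT drought, 4 and 16 became 11 and 8, 16 and 7, and 13 and 11 in that order. Cyclic loess gave 132 and 358 in nNOS drought versus nNOS control (main 184 and 263) and 52 and 124 for the difference of the responses (main 71 and 99). Centring moved the median of all probe sets to 0.11 and 0.14 in the comparisons of genotype without and with drought.

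Of the 8 other flavonoid genes, quantile and cyclic loess normalization gave 0 higher in nNOS drought versus nNOS control (main 1) and 2 higher in nNOS control versus WT control (main 1). Centring gave 1 lower in WT drought versus WT control and 1 higher in nNOS drought versus WT drought (main 0 in both). Deviations of same-numbered arrays correlated by -0.12 to 0.12 between groups. With 2 arrays per group, this cannot show whether same-numbered replicates were grown or handled together, which the sources used here do not give. With the replicate block, the count in nNOS control versus WT control stayed at 490 and the difference of the responses gave 172, and UGT89C1 in nNOS control versus WT control did not pass (adjusted p = 0.0533). DFR, GSTF12 and AT4G14090 kept their side of the threshold in the 5 comparisons. The leaf markers, the genes of most alike profile that are in no list and the contrasts that join both factors were not run with the block.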

Other observations

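GSTF12 belongs to the phi class of glutathione transferases, and of 12 further genes of that class in the list 2 were named by the platform annotation. GSTF4 had 3.67 and 3.46 in nNOS control and 4.18 and 4.32 in WT control, or a difference of -0.69 (limma adjusted p = 0.00134, SE 0.114, 2 arrays per group). It was also lower in nNOS drought than in WT drought, by -0.50 (limma adjusted p = 0.0246), which did not pass without any 1 of the 4 drought arrays (-0.55 to -0.45, adjusted p = 0.105 to 0.174). GSTF13 was below the lower quartile on all 8 arrays, and its difference of 0.20 in nNOS control versus WT control did not pass (limma adjusted p = 0.234).

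For the mean profile of the 3 anthocyanin genes, the most alike named genes over the 8 arrays were TSA1 (Pearson correlation 0.99), named from the study's list of called genes, and AT1G07830, AT1G12450, AT3G61210 and AT4G24350 (each 0.98). In nNOS control versus WT control they had log2 fold changes of -1.08, -0.89, -0.82, -1.18 and -1.18, in that order.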
